A study of Sus scrofa with 6 samples.

Results

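The genes described here are the core machinery of N6-methyladenosine (m6A), the methyl mark placed inside messenger RNA. They are the writers METTL3, METTL14 and WTAP, the erasers ALKBH5 and FTO, and the YTH-domain readers YTHDF1, YTHDF2, YTHDF3, YTHDC1 and YTHDC2. They were chosen by name, and all 10 were found by name among the 17678 genes of the table. Polyadenylated RNA of porcine 2-cell embryos was sequenced from 3 pools of 20 embryos per group, collected 32 h after parthenogenetic activation. NC embryos had received non-specific control siRNA, and SIN3A_KD embryos (KD) a set of 3 siRNAs against SIN3A, the scaffold of the SIN3/histone deacetylase repressor complex. In both groups the siRNA was injected into MII oocytes matured in vitro from ovaries of slaughtered Landrace, Yorkshire and Duroc crossbred pigs, and activation used electric pulses followed by cycloheximide and cytochalasin B. All embryos were therefore without a paternal genome, and at this stage the porcine embryonic genome is still largely silent, so that most of the RNA is maternal. The comparison of KD with NC embryos asks which transcripts differed once SIN3A was depleted and before the groups differed in appearance.

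m6A is laid down on nascent RNA by a nuclear complex. METTL3 carries the catalytic site, METTL14 forms the heterodimer with it and helps to hold the RNA, and WTAP joins the pair to the accessory subunits and to nuclear speckles. ALKBH5 and FTO are dioxygenases that remove the methyl group. The YTHDF proteins bind methylated RNA in the cytoplasm and are best known for promoting its decay, YTHDC1 binds it in the nucleus and acts on splicing and export, and YTHDC2 is an RNA helicase required for germ cells to proceed through meiosis. In mouse oocytes, METTL3, YTHDC1 and YTHDF2 are each needed for the formation of a competent egg, and YTHDF2 takes part in clearing maternal transcripts.

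The writers favour the letters GGACT, most often near the stop codon. These letters were searched on the sense strand only of the longest RefSeq mRNA (Sscrofa11.1) of each gene, and no other motif was searched. All 10 mRNAs held the motif, as did 92.6% of the 10234 mRNAs of tested genes with a RefSeq match. The number per kb ran from 0.295 in YTHDC1 to 2.39 in METTL3, against a median of 0.920 over the tested genes, and 4 of the 10 were above that median. The match nearest to the stop codon is printed for the writers, as the core of the complex, and for ALKBH5 and YTHDF1, the members whose match lay closest behind the stop. Only matches with all 25 printed bases inside the same exon were considered, and nearest does not mean near. Capitals mark the motif, and each sequence is the sense strand of the mRNA, 25 bases long.
METTL3: gcgttggaggGGACTccaatgcaga
METTL14: gcacagacggGGACTtcattcatgc
WTAP: agaatggcttGGACTcaagtgtaaa
ALKBH5: tggcctcccgGGACTcggctccatc
YTHDF1: cgtctgacacGGACTgtgggaccgt
The METTL3 sequence lies at chr7:77675926-77675950 on the plus strand, in the coding part of exon 5 of 11. The middle of its motif is 658 bases before the last coding base. The METTL14 sequence lies at chr8:105029451-105029475 on the minus strand, in the coding part of exon 10 of 11. The middle of the METTL14 motif is 463 bases before the last coding base. The WTAP sequence lies at chr1:7623280-7623304 on the minus strand in exon 8 of 8, with the middle of the motif 34 bases before the last coding base. The ALKBH5 sequence lies at chr12:60509089-60509113 on the minus strand in exon 4 of 4, with the middle of the motif 17 bases behind the last coding base. The YTHDF1 sequence lies at chr17:62330425-62330449 on the minus strand in exon 5 of 5, with the middle of its motif 34 bases behind the last coding base. Both are in the 3′ UTR. A match says only that the letters are there, since methylation was not measured.

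The values are abundances per gene that the authors had already normalized, and they were taken as scaled between libraries and not divided by gene length. Of 11986 genes whose values averaged 10 or more across libraries, 19 (0.159%) passed an adjusted p of 0.05 by limma on log2(value + 1) with Benjamini-Hochberg adjustment, 7 of them higher and 12 lower in KD. SIN3A, the targeted gene, averaged 34576 ± 2534 in NC embryos and 2841 ± 1591 after KD (SD, n = 3 each), and CCNB1, which encodes cyclin B1, averaged 8553 ± 717 and 1753 ± 675. Both passed the adjusted p of limma, at 8.45e-06 and 1.36e-05, though not without the trend of the variance with the mean or with a robust empirical Bayes step. Library depth, estimated from the step between low values, was 7820321 to 15847848 reads. Of 14 oocyte and early embryo markers 12 were found, and their values summed to 74343 to 81370 in NC and 72708 to 90250 in KD libraries. KPNA7 was the highest of these markers, with a mean of 39815 and so a large part of the sum, and FIGLA was the only one with a mean below 10. Of 14 cumulus and granulosa cell markers 11 were found, 8 of them with a mean below 10. The sum of the 11 was 800 to 963 in NC and 766 to 894 in KD libraries, most of it from VCAN, with a mean of 799, and none of the 11 was at 0 in every library. No marker of either list was called, but only 11 of the oocyte and early embryo markers and 3 of the cumulus and granulosa cell markers passed the filter and were tested.

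None of the 10 m6A genes differed between the groups at an adjusted p of 0.05 by limma (0 of 10, against 0.159% of all genes tested), and 0 of 10 had an unadjusted p below 0.05, against 4.61% of all genes. All 10 had passed the filter on low values. Their adjusted p was 0.997 in each case. Log2 fold changes (KD minus NC) lay between -0.33 for FTO and 0.14 for ALKBH5, with a median of -0.02 beside a median of 0.0026 over all genes tested. The 95% interval of 9 of the 10 stayed within a 1.5-fold change in either direction, and FTO was the exception. The libraries were pools of whole embryos, so a lower value in some embryos and a smaller amount of RNA in each cannot be told apart. As every library was scaled to the others, and the spike-in RNA added by the authors was not used here, a change of all messenger RNA together would not be visible. The RNA was enriched for poly(A) tails, and tail length was not measured. For every gene here, SIN3A and CCNB1 included, the amount of an mRNA and the length of its tail therefore cannot be told apart.

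**Figure D1:**
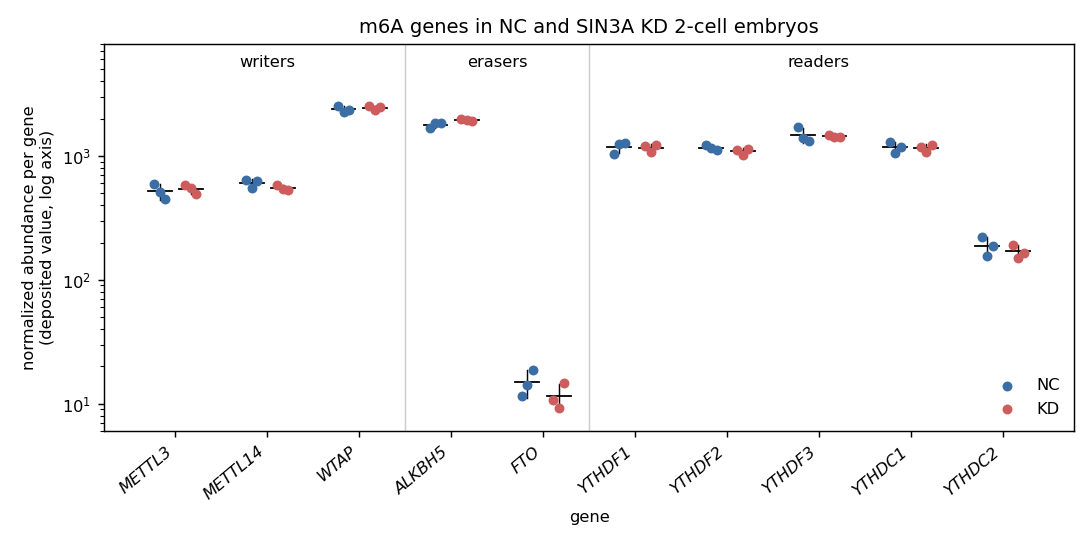
Normalized abundance of the 10 m6A genes (y axis, log scale) in the 3 NC (blue) and 3 KD (red) libraries, with the mean (horizontal bar) and SD (vertical bar). FTO sits between 9.29 and 18.9, and the NC and KD points overlap for every gene except ALKBH5.

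Among the writers, METTL3 (ENSSSCG00000024445, chromosome 7 from 77661945 to 77679459, plus strand) had values of 593, 513 and 446 in NC and of 585, 547 and 495 in KD embryos, in the order of the replicate numbers as for every gene below. The KD values lay inside the range of the NC values. The log2 fold change was 0.07 (standard error 0.13, 95% interval -0.20 to 0.34). METTL14 (ENSSSCG00000009113, chromosome 8 from 105019539 to 105053603, minus strand) had values of 637, 554 and 628 in NC and of 580, 544 and 535 in KD embryos. The groups overlapped through the KD replicate at 580 and the NC replicate at 554. Its log2 fold change was -0.13 (standard error 0.11, 95% interval -0.37 to 0.11). WTAP (ENSSSCG00000004050, chromosome 1 from 7622544 to 7651732, minus strand) had values of 2515, 2274 and 2361 in NC and of 2513, 2354 and 2481 in KD embryos. The KD values lay inside the NC range. The log2 fold change was 0.04 (standard error 0.09, 95% interval -0.14 to 0.22), and the upper end of that interval is 1.17-fold.

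The erasers differed from NC in opposite directions in value, and neither passed the test. ALKBH5 (ENSSSCG00000035120, chromosome 12 from 60507662 to 60530239, minus strand) had values of 1672, 1838 and 1826 in NC and of 1995, 1933 and 1929 in KD embryos. Every KD value was above every NC value, which held for 4.85% of all genes tested, and in either direction the groups were separate for 9.79% of all genes and for 1 of the 10 m6A genes. The KD mean was 110% of the NC mean, and the log2 fold change was 0.14 (standard error 0.09, 95% interval -0.05 to 0.32, unadjusted p = 0.148 and adjusted p = 0.997 from limma). By the exact permutation test (two-sided), ALKBH5 had p = 0.1, and 3 replicates against 3 allow no smaller value. The other 9 genes had exact p values from 0.2 to 1. ALKBH5 was also the member with the smallest spread within groups, with an SD of 0.057 on the log2 scale, against a median of 0.112 for the 500 tested genes nearest in mean.

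FTO (ENSSSCG00000035949, chromosome 6 from 31177112 to 31564674, minus strand) was near the lower end of what was measured. Its values were 11.6, 14.1 and 18.9 in NC and 10.8, 9.29 and 14.7 in KD embryos, which corresponds to about 9.65 to 21.9 reads per library if the common step of the low values holds for it. The highest value was that of an NC replicate and the lowest that of a KD replicate, and of the KD values 2 lay below the NC range and 1 inside it. The log2 fold change was -0.33 (standard error 0.47), and its 95% interval of -1.32 to 0.67 takes in both a level of 0.3996 of the NC level and 1.59 times it. These data do not tell a difference in FTO within these bounds from no difference.

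The cytoplasmic readers had log2 fold changes between -0.10 and -0.02. YTHDF1 (ENSSSCG00000040086, chromosome 17 from 62329302 to 62341312, minus strand) had values of 1039, 1242 and 1270 in NC and of 1200, 1079 and 1219 in KD embryos. All KD values lay inside the NC range, and the log2 fold change was -0.02 (standard error 0.11, 95% interval -0.24 to 0.21). YTHDF2 (ENSSSCG00000027686, chromosome 6 from 85717147 to 85756750, plus strand), the paralog tied to maternal mRNA decay, had values of 1220, 1154 and 1126 in NC and of 1112, 1019 and 1145 in KD embryos. The KD replicate at 1145 was above the lowest NC replicate, so the groups overlapped. Its log2 fold change was -0.10 (standard error 0.10, 95% interval -0.30 to 0.11). YTHDF3 (ENSSSCG00000033144, chromosome 4 from 70887101 to 70928839, minus strand) had values of 1698, 1396 and 1310 in NC and of 1467, 1431 and 1411 in KD embryos. NC replicate 1 stood above the rest, and without it the log2 fold change of -0.02 (standard error 0.11) turned to 0.09.

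Of the other readers of the YTH family, YTHDC1 (ENSSSCG00000035505, chromosome 8 from 66086528 to 66122717, plus strand) had values of 1284, 1054 and 1190 in NC and of 1191, 1066 and 1229 in KD embryos. All KD values lay inside the NC range, and the log2 fold change was -0.01 (standard error 0.11, 95% interval -0.24 to 0.21). YTHDC2 (ENSSSCG00000014211, chromosome 2 from 118003402 to 118092176, plus strand) was much lower, with values of 222, 155 and 187 in NC and of 192, 151 and 165 in KD embryos. Its log2 fold change of -0.14 (standard error 0.17, 95% interval -0.51 to 0.23) was -0.01 without NC replicate 1.

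**Figure D2:**
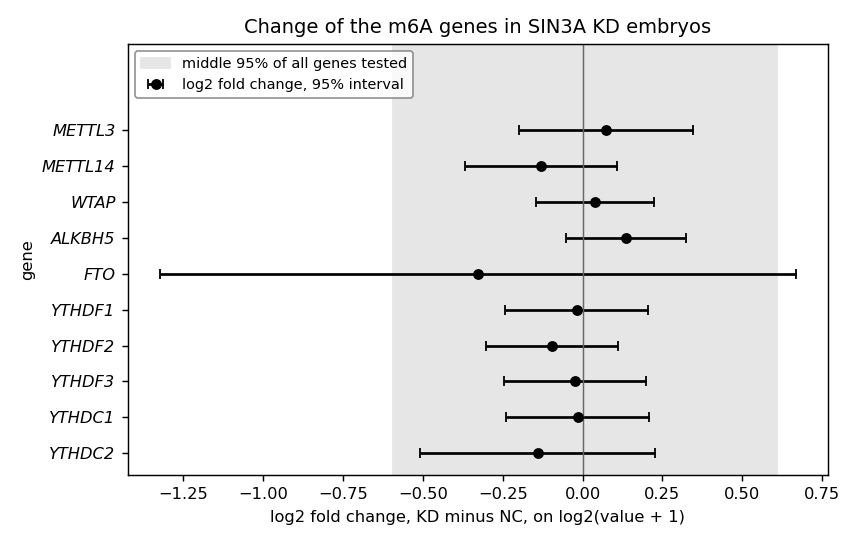
Log2 fold change of each m6A gene (x axis, KD minus NC on log2(value + 1)) with its 95% interval from limma. The grey band from -0.59 to 0.61 holds the middle 95% of all genes tested, and every point lies inside it, while the interval of FTO reaches beyond it on both sides.

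Levels were compared between genes per kb of the longest RefSeq mRNA, as the deposited values were taken to grow with transcript length. In NC embryos WTAP was the highest, at 1129 ± 57.8 per kb (SD, n = 3), which lay above 95.5% of the tested genes with a RefSeq length. ALKBH5 followed at 532 ± 27.8 per kb. Neither overlapped with its neighbour in the order over the 3 NC libraries. YTHDF1, at 402 ± 42.8 per kb, and YTHDC1, at 347 ± 34.1 per kb, overlapped with each other. METTL3, METTL14 and YTHDF3 came next at 248 ± 35.1, 221 ± 16.6 and 206 ± 28.6 per kb, each overlapping with the others. YTHDF2 was at 94.1 ± 3.89, YTHDC2 at 29.0 ± 5.17 and FTO at 9.62 ± 2.40 per kb, the last above 17.5% of the tested genes, and these were separate from each other. The ratio of ALKBH5 to FTO per kb of mRNA was 57.1 ± 11.3 in NC and 80.5 ± 18.1 in KD embryos, with overlapping groups. Per kb of coding length it was 159 ± 31.4 and 224 ± 50.4, so ALKBH5 was the higher on both scales but the size of the ratio depended on the length used. The erasers were the second highest and the lowest of the family.

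The order in the middle also depended on the length used. The RefSeq mRNA of YTHDF2 is 12398 bases long, of which 2193 are coding, and that of FTO holds 1542 bases, of which 1518 are coding, so the UTRs are unequally annotated, and the lengths the authors used were not part of the data. Per kb of coding length, a scale chosen after the values were seen, WTAP at 2006 ± 103 and ALKBH5 at 1501 ± 78.4 were still the highest, and YTHDC2 at 43.8 ± 7.80 and FTO at 9.77 ± 2.44 still the lowest. YTHDF3 moved up to 915 ± 127, above YTHDF1 at 706 ± 75.1 and YTHDF2 at 532 ± 21.97. METTL14 at 442 ± 33.3 then stood above METTL3 at 297 ± 42.0, so which of the heterodimer partners had more polyadenylated mRNA was not settled by these data.

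**Figure D3:**
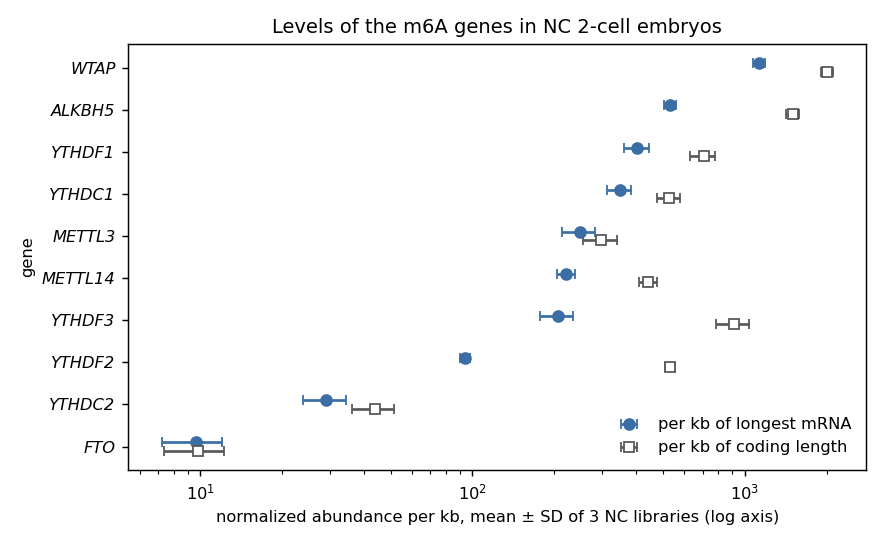
Abundance of the 10 m6A genes in NC embryos (x axis, log scale, mean ± SD of 3 libraries), per kb of the longest mRNA (filled circles) and per kb of coding length (open squares). WTAP and ALKBH5 are the highest and YTHDC2 and FTO the lowest on both scales, while the genes between change places.

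Ratios within a library do not depend on the scaling of that library. The ratio of METTL3 to METTL14 per kb of mRNA was 1.22, 1.22 and 0.934 in NC embryos, against 1.33, 1.32 and 1.22 after KD. Per kb of coding length the same ratio was below 1 in every library, at 0.731, 0.729 and 0.559 in NC and 0.793, 0.790 and 0.728 in KD embryos. The groups overlapped, and NC replicate 3, with the lowest METTL3 value, stood apart. The ratio of WTAP to METTL14 was 5.13, 5.34 and 4.89 in NC and 5.64, 5.63 and 6.04 in KD embryos, with every KD ratio above every NC ratio. It was the only 1 of 7 ratios computed between members whose groups did not overlap, and it was not tested. Single genes had separate groups in 9.79% of all genes tested, and no such share was computed for ratios. The values of WTAP and of METTL14 each overlapped between the groups. The ratio of YTHDF1 to YTHDF3 was 1.99 ± 0.454 in NC and 1.96 ± 0.133 in KD embryos per kb of mRNA, but 0.788 ± 0.180 and 0.777 ± 0.0527 per kb of coding length, so its direction turned with the length used while the groups overlapped on both scales.

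NC replicate 1 held the highest value of 7 of the 10 genes, while 21.96% of all tested genes were highest there. These were METTL3, METTL14, WTAP, YTHDF2, YTHDF3, YTHDC1 and YTHDC2, and the same library held the lowest value of ALKBH5 and YTHDF1. The summed value of the 10 genes was between 10134 and 10890 in the 6 libraries, and it was highest in NC replicate 1. Without NC replicate 1, the median log2 fold change of the members was 0.018 instead of -0.02, with 5 genes above and 5 below 0 instead of 3 above and 7 below. Without KD replicate 2, the library with the highest depth estimate, the split was also 5 and 5.

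**Figure D4:**
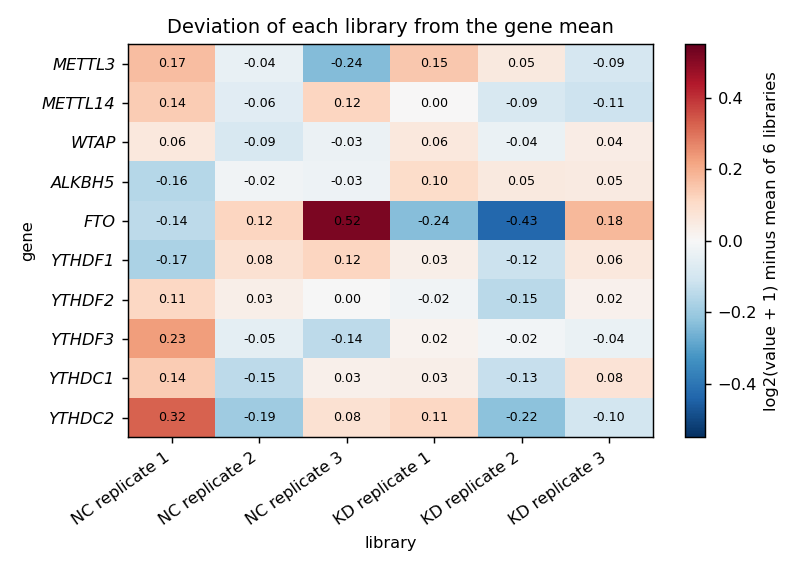
Deviation of each library (columns) from the mean of the 6 libraries on log2(value + 1), for each m6A gene (rows). NC replicate 1 is above the mean for 7 genes, up to 0.32 for YTHDC2, and FTO has the widest range, from -0.43 to 0.52.

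Over the 6 libraries, Pearson correlations between members on log2(value + 1) ran from -0.86 for METTL3 and FTO to 0.87 for METTL14 and YTHDC2, and they are given as a description, since the points share libraries and scaling. These are the extremes over all pairs of members, and the values of FTO were near the lower end of what was measured. WTAP and YTHDC1 had 0.85, METTL3 and YTHDF3 had 0.83, and YTHDF1 and YTHDF3 had -0.82. The profile of ALKBH5, the member with the largest moderated t in absolute value, was most like those of GAS8 (Pearson's r = 0.995), IL1RL1 (0.991) and TAF6 (0.989). GAS8, with values from 7.29 to 17.5, and IL1RL1, with values from 0 to 29.2, were near the lower end of the table. With only 6 libraries, 117 tested genes (0.976%) had an r above 0.9 with it. TAF6, a subunit of the general transcription factor TFIID, had values of 676, 850 and 821 in NC and of 958, 899 and 893 in KD embryos. Its groups were separate in the same direction as those of ALKBH5, which follows from its choice by likeness to ALKBH5 and is no further result, and the log2 fold change was 0.24, with standard error 0.11 and an adjusted p of 0.997 from limma.

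The wider pathway was read from 5 further lists of 39 genes, of which 38 were found and 36 tested. By limma, 0 of the 36 passed the adjusted p in either direction, against 0.159% of all genes tested, and 3 had an unadjusted p below 0.05, against 4.61%. Their median log2 fold change was -0.03, and 4 of the 36 had separate groups, 3 of them higher and 1 lower in KD, where 9.79% of all genes did.

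Of the 5 accessory subunits of the writer complex, RBM15B, which guides the complex to its RNA targets, differed most. It had values of 963, 1473 and 1430 in NC and of 1830, 1633 and 1617 in KD embryos. Every KD value was above every NC value, and the KD mean was 131% of the NC mean. The log2 fold change was 0.42 (standard error 0.13, 95% interval 0.13 to 0.70, unadjusted p = 0.00669, adjusted p = 0.774 from limma), and NC replicate 1 was far below the others: without it the log2 fold change was 0.22. RBM15, its paralog, averaged 571 ± 13.0 in NC embryos and 569 ± 17.2 after KD (SD, n = 3 each), with overlapping groups, and was named after its values were seen. For ZC3H13, which keeps the complex in the nucleus, it was 0.08 ± 0.08 (standard error).

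Of the 6 other methyltransferases and cofactors, 5 were tested, and METTL5 was below the filter. ZCCHC4, a ribosomal RNA methyltransferase, stood at 0.19 ± 0.23 on the log2 fold change scale (value and standard error) and PCIF1, which methylates the cap-adjacent adenosine, at -0.17 ± 0.21. The enzymes around S-adenosylmethionine, the methyl donor, showed small values as well. MAT2A, which makes the donor, stood at -0.08 ± 0.12 on the same scale and AHCY, which clears the product of methylation, at -0.16 ± 0.18.

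Among the readers outside the YTH family, 11 of the 12 found were tested, and IGF2BP1 was below the filter. FXR1, an RNA-binding relative of the fragile X protein, had values of 4370, 4412 and 4552 in NC and of 3652, 3602 and 4093 in KD embryos. Every KD value was below every NC value, as for 4.94% of all genes, and the log2 fold change was -0.23 (standard error 0.08, 95% interval -0.41 to -0.06, unadjusted p = 0.0134, adjusted p = 0.904 from limma). EIF3A, a subunit of translation initiation factor eIF3, had values of 263, 272 and 224 in NC and of 328, 306 and 298 in KD embryos. Its groups were separate too, and the log2 fold change was 0.30 (standard error 0.14, unadjusted p = 0.0459, adjusted p = 0.997 from limma).

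Partners of the YTH readers were represented by 12 genes, with a median log2 fold change of 0.04. CNOT1, the scaffold of the deadenylase complex that YTHDF2 recruits, had values of 2137, 1854 and 1696 in NC and of 1984, 2286 and 1959 in KD embryos. The groups overlapped, and the log2 fold change was 0.13 (standard error 0.10). RBM46, a germ cell protein that binds YTHDC2, had values of 11.35, 3.18 and 5.74 in NC and of 11.2, 10.3 and 26.3 in KD embryos. The groups overlapped, KD replicate 3 was the highest, and the log2 fold change was 0.74 without it. Over all libraries the log2 fold change, 1.14 with standard error 0.60 and an adjusted p of 0.997 from limma, rests on values near the lower end of the table.

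**Figure D5:**
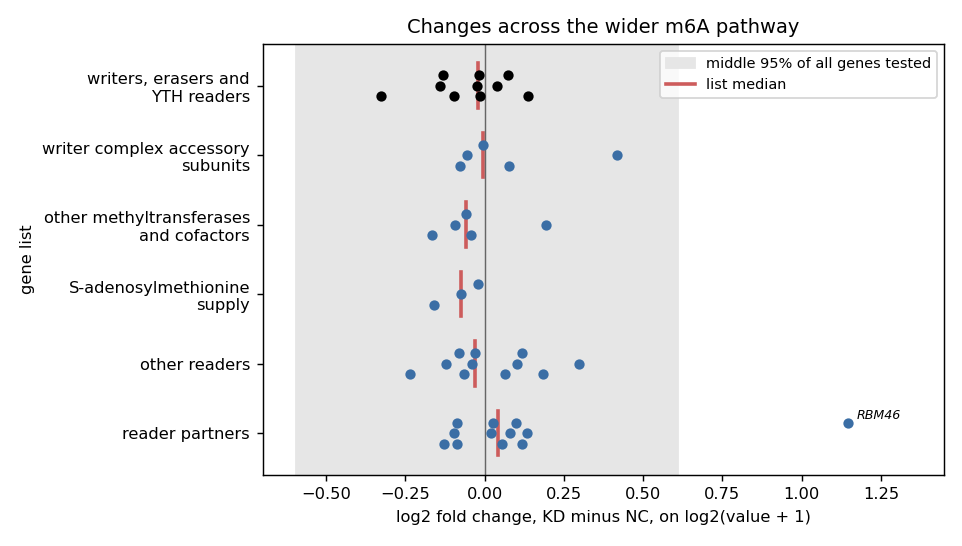
Log2 fold changes (x axis, KD minus NC on log2(value + 1)) of the tested genes of each list, with the 10 m6A genes in black, the list medians as red bars and the middle 95% of all genes as a grey band. Apart from RBM46 at 1.14, every gene lies inside the band from -0.59 to 0.61.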

How the data were processed

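Total RNA of 20 embryos per replicate was enriched for polyadenylated RNA, and libraries were sequenced on an Illumina HiSeq instrument. The authors assigned reads to Sscrofa11.1 transcripts with Salmon (version 0.14.1 in the submitters' processing notes) and named DESeq2 for the comparison. The deposited signal values are normalized values per Ensembl gene. They were taken to be read estimates scaled between libraries and not divided by length, which was inferred and not checked. Between 23.5% and 52.0% of the low values lay within 0.02 of a multiple of 1 step per library, so reads could not be restored as whole numbers and count models were left out. The depth estimate is the sum of a library divided by that step.

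Genes with a mean of at least 10 were fitted with limma 3.58.1 (R 4.3.3) on log2(value + 1), with a variance trend and without a block, and adjusted over all genes tested. On this scale the fold changes of low genes come out too small. Single genes were compared by exact permutation tests (scipy 1.17.1). The fit was tested on simulated data whose variance depended on the mean alone. That setting does not cover genes, such as SIN3A and CCNB1, with a wider spread than genes of like mean. Lengths, positions and sequences come from RefSeq for Sscrofa11.1, matched by symbol (85.4% of tested genes). In the other lists, 3 genes were named through Ensembl identifiers. Figures were drawn with matplotlib 3.10.9.

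The members and lists were chosen with earlier results of these data known. Named are the 10 members, SIN3A and CCNB1, any called gene and the 2 largest changes of each other list, and the 3 genes most like the member with the largest moderated t in absolute value. The labels name separate replicates, which the paper calls independent. Neither says that oocyte batches differed, so p-values measure the spread between these samples. The alternatives left out each library in turn, blocked on the replicate number, dropped the variance trend, made eBayes robust, changed the pseudocount to 0.1 or 10, removed the filter or raised it to 100, and rescaled by TMM-like factors or quantiles.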

Additional observations from a re-analysis of the deposited data

How the results depend on the processing

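None of the 10 m6A genes was called in any of the 15 alternative settings, with 0 of 10 at an unadjusted p below 0.05 in each and a lowest adjusted p of 0.865 by limma, without KD replicate 3. FTO was not tested at a mean of at least 100. Without the variance trend no gene of the table was called (0 at the adjusted p, 0 with the fold threshold of 0.8 as well, 622 at an unadjusted p), SIN3A and CCNB1 included, both at an adjusted p of 0.423. With robust eBayes these were at 0.469 and 0.439. The cause was not tested. The number of genes called was 19, and 15 with the fold threshold, and ranged from 11 to 19 and from 10 to 14 when 1 library was left out, the lowest of both without KD replicate 2, and 12 without NC replicate 2 or 3. Log2 fold changes that changed sign did so only when 1 library was left out: METTL3 from -0.0281 to 0.18, YTHDF1 from -0.11 to 0.0365, YTHDF3 from -0.10 to 0.09, YTHDC1 from -0.0918 to 0.0505, PCIF1 from -0.34 to 0.055, MAT2A from -0.19 to 0.0011 and AHCY from -0.26 to 0.015. Of 149 comparisons for the members, 142 kept direction and side of the threshold and 7 changed sign. The 3 libraries per group limit what can be seen, and the values of FTO were also near the lower end of what was measured.

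Blocking on the replicate number, the fit called 26 genes, 17 with the fold threshold, and 0 of the 10 m6A genes, whose lowest adjusted p was 0.952. Deviations of same-numbered libraries correlated at 0.109, 0.111 and 0.087, so that not every pair was above 0.1, although each library correlated best with its own number. Pairs with different numbers lay between -0.0828 and -0.0215. Deviations within a group cancel, so these are not independent of the same-numbered values. The block changed no call of the genes named here.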
